A study of Mus musculus with 3 samples.

Results

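In the ear skin of Lang-DTA mice, 1148 of 2616 non-cycling, Ptprc-negative cells with a Prox1 UMI (43.9%, exact 95% binomial interval 42.0 to 45.8) carried many transcripts of Gdf15, Gpnmb or both. Prox1 is the defining factor of lymphatic endothelium, and cells with its UMI are called lymphatic cells here. That gate also took in other cells: 352 of the 2616 (13.5%), with 70 members and 92 of the 905 reference cells, lay in 6 clusters led by markers of blood endothelium, keratinocytes, cartilage, fibroblasts or smooth muscle. Without these clusters the share was 47.6%. Members were chosen from measured values. Kept were cells with 500 or more genes, 1000 or more UMIs and a mitochondrial share of up to 10%. Of these, a member had to hold at least 1 UMI of Prox1, at least 4 UMIs of Gdf15 and Gpnmb together, at most 1 UMI of Mki67 and Top2a together and 0 UMIs of Ptprc, the gene of CD45. A UMI is a molecular tag that counts 1 captured RNA molecule. Of 37961 kept cells in 3 libraries, 1792 met the rule. The members of the Lang-DTA library were set beside 905 reference cells of the same library, which had at least 2 Prox1 UMIs and at most 1 UMI of Gdf15 and Gpnmb together, with the same limits on the other genes. Because the rule made both groups from the same cells, every difference between them is a description and carries no test.

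The series held 3 single-cell RNA libraries of untreated mouse ear skin. Young WT was C57BL/6J at 4 weeks (5 male and 3 female mice), adult WT was C57BL/6J at 8 weeks (6 male and 4 female mice), and adult Lang-DTA was Langerin-DTA at 8 weeks (4 male and 6 female mice). In the Langerin-DTA transgene, human Langerin regulatory sequence drives diphtheria toxin A, which removes Langerhans cells. Over all kept cells Cd207, the mouse gene of Langerin, had 25419 UMIs in young WT, 17136 in adult WT and 87 in Lang-DTA. Lymphatic endothelial cells (CD45-CD31+PDPN+), blood endothelial cells, CD45+ cells and cells without CD45 and CD31 were sorted and combined in equal parts. The mice of a condition were pooled into 1 library, so no value here has a replicate check, and intervals cover counting error only. The shares of cells in a library also depend on the sort.

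Lymphatic endothelial cells line the vessels that drain fluid and immune cells from skin. They are specified by the transcription factor PROX1, carry the hyaluronan receptor LYVE1 and the VEGF-C receptor FLT4, and release CCL21, which guides dendritic cells. GDF15 is a secreted protein of the TGF-beta family that many cells make under stress, as a target of p53 and of the ATF4 and CHOP arm of the integrated stress response. GPNMB is a transmembrane glycoprotein of melanosomes and lysosomes, abundant in melanocytes and in macrophages under lysosomal load. Its gene is a target of the MiT/TFE transcription factors (MITF, TFEB and TFE3), which bind a short E-box in the promoters of lysosomal genes.

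Promoters of 7 genes named here are shown because the gene lists described further on hold known targets of factors that bind short motifs. They were taken from RefSeq (GRCm38.p6), 250 bases before the start of transcription, 5′ to 3′ on the gene's strand. Both strands were searched for 4 motifs, and matches are in capitals. CACGTGA is an E-box that MiT/TFE factors bind, but not a motif of these factors alone. TGATGCA is the shared core of C/EBP-ATF sites. GGAATG is the motif of TEAD factors, the partners of YAP, and TGANTCA that of AP-1. The palindromic form of the E-box is read on both strands and counts as 2 overlapping matches. Gdf15 and Gpnmb are the genes of the rule, Ankrd1 is a given marker that was nearly absent from WT lymphatic cells, and the other 4 genes were picked for carrying at least 2 E-box matches each. The promoters of Hexa, Rragd, Flcn, Cd63, Olfm1, Pdk4, Dbp and Fabp3, which are named further on, held no E-box match and are not shown.
Gdf15, chr8:70632457-70632706, minus strand: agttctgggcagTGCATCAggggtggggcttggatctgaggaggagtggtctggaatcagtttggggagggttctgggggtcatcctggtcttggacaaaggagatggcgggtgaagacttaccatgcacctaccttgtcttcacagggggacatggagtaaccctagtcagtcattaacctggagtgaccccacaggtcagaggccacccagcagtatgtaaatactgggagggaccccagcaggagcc
Gpnmb, chr6:49036268-49036517, plus strand: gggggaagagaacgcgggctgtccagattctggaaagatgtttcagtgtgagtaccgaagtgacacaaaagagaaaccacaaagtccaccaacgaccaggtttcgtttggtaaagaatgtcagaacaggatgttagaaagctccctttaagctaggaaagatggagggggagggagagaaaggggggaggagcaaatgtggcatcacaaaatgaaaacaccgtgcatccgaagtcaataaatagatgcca
Ankrd1, chr19:36119845-36120094, minus strand: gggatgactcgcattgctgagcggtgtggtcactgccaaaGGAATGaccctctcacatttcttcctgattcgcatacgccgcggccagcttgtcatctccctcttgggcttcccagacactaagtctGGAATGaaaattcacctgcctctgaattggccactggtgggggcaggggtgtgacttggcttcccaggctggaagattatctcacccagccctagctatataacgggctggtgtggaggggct
Lamp1, chr8:13158911-13159160, plus strand: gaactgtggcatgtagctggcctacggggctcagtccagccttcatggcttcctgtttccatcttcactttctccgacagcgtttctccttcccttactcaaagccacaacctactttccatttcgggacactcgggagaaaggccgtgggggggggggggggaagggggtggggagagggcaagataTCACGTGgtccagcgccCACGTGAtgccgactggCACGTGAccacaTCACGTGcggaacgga
Ctsd, chr7:142387828-142388077, minus strand: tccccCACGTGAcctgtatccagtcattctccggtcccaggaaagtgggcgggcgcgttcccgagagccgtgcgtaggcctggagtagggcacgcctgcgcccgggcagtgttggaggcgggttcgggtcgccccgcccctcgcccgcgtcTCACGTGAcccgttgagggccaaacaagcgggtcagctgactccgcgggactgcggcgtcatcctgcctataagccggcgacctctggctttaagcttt
Gla, chrX:134601006-134601255, minus strand: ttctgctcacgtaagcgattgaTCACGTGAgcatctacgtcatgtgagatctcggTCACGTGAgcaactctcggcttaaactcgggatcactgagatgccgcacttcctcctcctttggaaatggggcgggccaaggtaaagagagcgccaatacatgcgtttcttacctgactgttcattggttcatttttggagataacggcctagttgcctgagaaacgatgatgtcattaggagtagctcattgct
Atp6v0b, chr4:117887330-117887579, minus strand: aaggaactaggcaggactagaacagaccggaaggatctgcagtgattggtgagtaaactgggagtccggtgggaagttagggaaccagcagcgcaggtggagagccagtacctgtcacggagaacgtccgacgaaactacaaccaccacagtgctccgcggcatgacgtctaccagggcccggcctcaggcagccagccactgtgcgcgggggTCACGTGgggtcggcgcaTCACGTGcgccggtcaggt

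In these windows Gdf15 held 1 C/EBP-ATF match, Gpnmb held no match to any of the 4 motifs, and Ankrd1 held 2 TEAD matches. Lamp1 and Gla held 4 E-box matches each, Ctsd 3 and Atp6v0b 2. RefSeq lists another start for Gdf15, whose window is not shown. Of the 27025 genes with a promoter, 3.58% had the E-box, 3.10% the C/EBP-ATF core, 14.4% the TEAD motif and 7.82% the AP-1 motif. The E-box was in 105 of the 667 genes with a promoter that were at least 2-fold higher in members (15.7%), in 15 of 741 that were lower (2.02%) and in 468 of 7319 genes compared (6.39%). Of the lysosomal list 12 of 33 genes had it, of the V-ATPase list 2 of 12, and of the list of MiT/TFE targets and autophagy genes 2 of 23 (8.70%). The TEAD motif was about as frequent in higher genes (12.0%) as in genes compared (12.3%). The clock genes Ciart and Bhlhe41, named further on, held 1 E-box match each. A match is a description of letters and shows no binding, and which factor uses the E-box was not tested.

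Cells that met the rule were not confined to the Lang-DTA library. Of the 1792 cells, 64.1% came from the Lang-DTA library, 28.0% (501 of 4280 lymphatic cells, 11.7%) from young WT and 7.98% (143 of 1905, 7.51%) from adult WT. The cells of the WT libraries met the rule almost only through Gdf15: 468 of 501 and 125 of 143 had 4 or more Gdf15 UMIs and fewer than 4 of Gpnmb. In the Lang-DTA library 327 members reached 4 UMIs with Gdf15 only, 316 with Gpnmb only, 475 with each of them, and 30 with their sum only. Cells with at least 4 UMIs of each gene made up 18.2% of Lang-DTA lymphatic cells (16.7 to 19.7), 0.187% in young WT (8 cells), and 0 of 1905 in adult WT, which allows up to 0.157%. At least 4 Gpnmb UMIs alone were found in 791 cells of Lang-DTA (30.2%), 22 of young WT (0.514%) and 9 of adult WT (0.472%). In what follows, members are the Lang-DTA cells, and the WT cells are called rule-meeting WT cells.

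**Figure D1:**
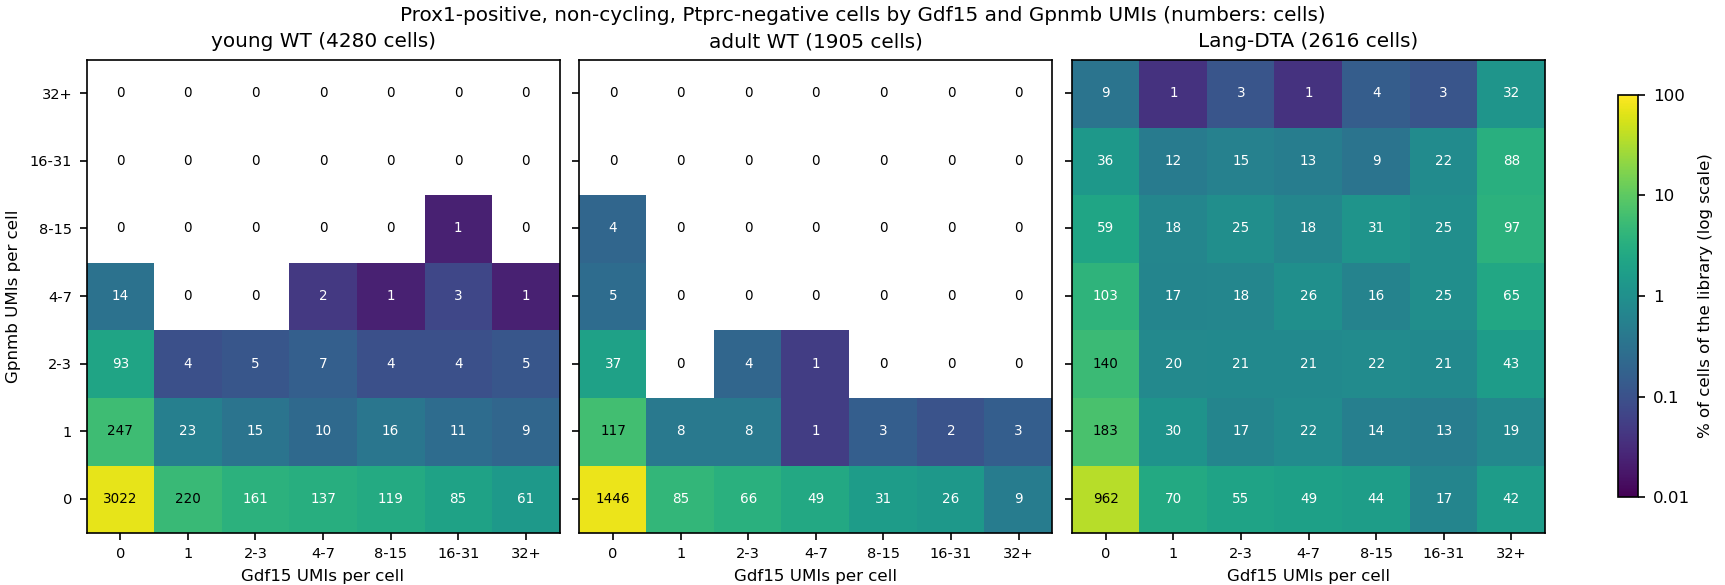
Non-cycling, Ptprc-negative cells with a Prox1 UMI in each library, by Gdf15 UMIs (horizontal axis) and Gpnmb UMIs (vertical axis) per cell; numbers are cells and colour is the percent of the library's cells on a log scale. In Lang-DTA 32 cells had 32 or more UMIs of each gene, and no WT cell had 16 or more Gpnmb UMIs.

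The libraries held 124590777 to 137441575 UMIs, with 12399 to 12941 kept cells and median depths of 8479 to 9823 UMIs per kept cell. Members were deeper than reference cells, with a median of 11074.5 against 6632 UMIs and 3622 against 2822 genes, and had a lower mitochondrial share (0.638% against 1.78%). With each cell thinned to 2000 UMIs, 1005 genes were at least 2-fold higher in members and 1130 lower, against 876 and 998 without thinning. Pairs of libraries shared 34 to 47 barcodes, and no barcode of a Lang-DTA member was a member elsewhere. Doublet calls took in 87 members (7.58%) and 44 reference cells (4.86%). At the limit of the rule, 57 cells of the library had 4 UMIs and 99 had 3.

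Gdf15 (chromosome 8, 70629393 to 70632456, GRCm38) and Gpnmb (chromosome 6, 49036546 to 49070929) set the membership. Members had a median of 11 Gdf15 UMIs per cell, with a maximum of 1117, and a median of 6 Gpnmb UMIs, with a maximum of 83. Summed over cells, Gdf15 stood at 4166 counts per 1000000 UMIs (CPM) in members and at 7.56 in Lang-DTA reference cells, 8.26 in young WT reference cells and 10.3 in adult WT reference cells. Gpnmb stood at 845 CPM in members and at 21.3, 9.06 and 13.4 in the same reference groups. The 3 reference groups thus had like low levels of Gdf15, as the rule required. In rule-meeting WT cells Gdf15 was at 1619 (young) and 1636 CPM (adult), and Gpnmb at 40.7 and 73.8 CPM.

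The other given markers were higher in members. Cd63, which encodes a tetraspanin of late endosomes and lysosomes (chromosome 10, 128900989 to 128912822), was at 521 CPM in young WT reference cells, 427 in adult WT reference cells, 845 in Lang-DTA reference cells and 3847 in members, a 4.55-fold difference within Lang-DTA (95% counting interval 4.43 to 4.68). Olfm1, which encodes the secreted glycoprotein olfactomedin 1 (chromosome 2, 28192992 to 28230736), was at 344, 283, 172 and 1592 CPM in the same order (9.27-fold, 8.74 to 9.83). Olfm1 was thus lower in Lang-DTA reference cells than in either WT group, and highest in members. Ccl2, the gene of a chemokine that draws monocytes (chromosome 11, 82035571 to 82037453), was at 39.1, 28.6, 277 and 1276 CPM (4.61-fold, 4.40 to 4.84), and 44.9% of members against 15.03% of reference cells had a Ccl2 UMI.

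Ankrd1, a nuclear ankyrin repeat gene known as a YAP target (chromosome 19, 36111961 to 36120099), differed more between the libraries than between members and reference cells. It was at 0.641 CPM in young WT reference cells (16 UMIs), 1.23 in adult WT reference cells (9 UMIs), 117 in Lang-DTA reference cells and 244 in members. At least 1 Ankrd1 UMI was found in 15.6% of Lang-DTA reference cells, 38.9% of members and 0.0781% of adult WT reference cells. Within cluster 1 of the lymphatic cells, described further on, its log2 ratio of members over reference cells was -0.05, against 1.06 over all cells. The rule-meeting WT cells had 12 Ankrd1 UMIs in 501 cells (young) and 4 in 143 (adult).

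Over all genes, 9307 had at least 10 CPM in 1 of the groups and at least 20 UMIs, and were compared. At least 2-fold higher in members were 876 (9.41%) and at least 2-fold lower 998 (10.7%), with a median log2 ratio of -0.09 (quartiles -0.55 and 0.39). The rule used this contrast, so these shares are given as background for the lists. Cells were called male (416 members) and female (625 members) from Xist and Y-linked transcripts. Both sexes gave the same direction for 869 of the 876 higher and 976 of the 998 lower genes. These cells were most of those that chose the genes, so the same direction was largely given in advance. Over all 9307 genes the Pearson correlation of the male and female log2 ratios was 0.85. The mice of both sexes were processed in 1 library.

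Reference cells of Lang-DTA differed from those of adult WT in fewer genes. Of 9190 compared, 269 were at least 2-fold higher in Lang-DTA (2.93%) and 258 lower (2.81%). Of the V-ATPase genes 0 of 16 were past 2-fold, of the lysosomal genes 1 of 40 was higher, and of the ATF4 genes 1 of 27. YAP and TEAD targets had 5 of 21 higher and 1 lower (median log2 ratio 0.66), and 3 of 25 lymphatic identity genes were lower and 2 higher. These reference cells are the controls of the members, so the values of the comparisons are only set side by side.

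**Figure D2:**
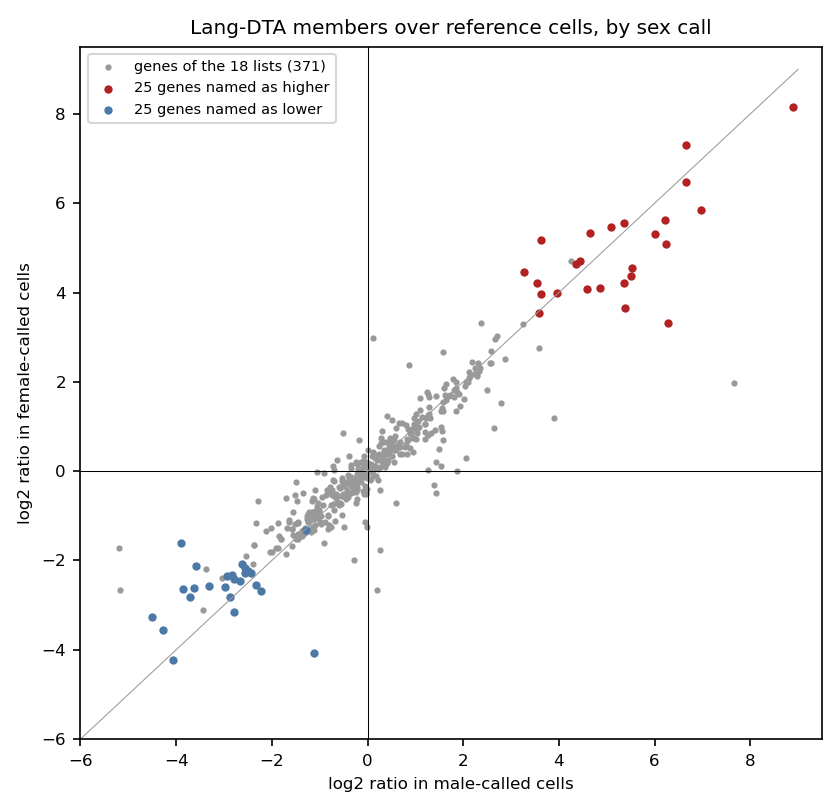
Log2 ratio of Lang-DTA members over reference cells in male-called (horizontal axis) and female-called cells (vertical axis); grey points are 371 genes of 18 lists, coloured points the 25 named genes in each direction, and the line marks equal values. Each coloured point lies in the same quadrant for both sexes, as the naming rule required.

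The vacuolar ATPase is the proton pump that acidifies lysosomes. Of its 17 subunit genes compared, 12 were at least 2-fold higher and 0 at least 2-fold lower, with a median log2 ratio of 1.74. This was the highest share above 2-fold among the pathway lists of more than 10 genes. The clock list, described further on, was close with 13 of 19. The lists were chosen with earlier results of these data known, so the rank is only a description. Atp6v0b, a proteolipid subunit of the membrane ring, was at 172 CPM in young WT reference cells, 128 in adult WT reference cells, 186 in Lang-DTA reference cells and 1152 in members (log2 2.63, 2.55 to 2.71). Atp6v1h, the regulatory H subunit (chromosome 1, 5070018 to 5162529), was at 72.2, 64.9, 91.4 and 563 CPM (2.62, 2.51 to 2.74). The 3 reference groups lay close together for both genes, and members stood apart. Atp6v1d, of the central stalk, was at 573 against 113 CPM (2.34), and Atp6v1a, the catalytic subunit, at 408 against 120 CPM (1.76). Subunits that did not pass 2-fold included Tcirg1, the a3 subunit known from osteoclasts (9.55 against 18.4 CPM, -0.95), and Atp6v0a1, the a1 subunit (31.1 against 41.7 CPM, -0.42). Summed over the list, the V-ATPase stood at 5557 CPM in members, 1664 in Lang-DTA reference cells, 1410 in young WT and 1320 in adult WT reference cells.

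Lysosomal enzymes and membrane proteins were higher in sum, at 9936 CPM in members and 4009 in Lang-DTA reference cells, with uneven sizes by gene. Of 40 genes compared, 15 were at least 2-fold higher and 1 lower (median 0.55). Hexa, the alpha subunit of beta-hexosaminidase (chromosome 9, 59539540 to 59565109), was at 40.8 CPM in young WT, 30.3 in adult WT and 44.5 in Lang-DTA reference cells and 416 in members (log2 3.22, 3.06 to 3.39). Gla, alpha-galactosidase A, was at 18.8, 17.9, 12.0 and 102 CPM (3.09, 2.77 to 3.42). Ctsd, the aspartic protease cathepsin D, was at 88.1, 64.5, 117 and 549 CPM (2.23, 2.12 to 2.33). For these enzymes the members lay above each reference group, while the reference groups differed by less. Lamp1, a main protein of the lysosomal membrane, was at 477 CPM in Lang-DTA reference cells and 1527 in members (1.68). Its relative Lamp2 was at 392 and 579 CPM (0.56), and the cysteine protease Ctsb was lower in members by less than 2-fold (133 against 178 CPM, -0.42). The calcium channel of lysosomes Mcoln1 was at 40.9 against 14.1 CPM (1.53). Dpp7, a lysosomal dipeptidase outside the list but among the 25 genes named for the widest difference, was at 142 against 8.99 CPM (3.98).

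The list of MiT/TFE targets, autophagy genes and the mTORC1 feedback had 10 of 23 genes at least 2-fold higher and 1 lower (median 0.94). Rragd (chromosome 4, 32983037 to 33022180), which encodes a Rag GTPase that recruits mTORC1 to lysosomes and is a known MiT/TFE target, was at 2.45 CPM in young WT, 1.64 in adult WT and 2.71 in Lang-DTA reference cells (19 UMIs) and 66.7 in members (log2 4.62, 3.97 to 5.36). Its relative Rragc was at 81.9 and 333 CPM (2.02), and Flcn, the folliculin GTPase-activating protein for these GTPases, at 18.5 and 75.6 CPM (2.03). Fnip1, the partner of folliculin, was at 162 and 491 CPM (1.60). These 4 genes of lysosomal nutrient sensing were each higher in members. Sqstm1, the autophagy receptor p62, was at 604 and 1964 CPM (1.70), and Gabarapl1, an autophagosome protein, at 133 and 581 CPM (2.13). The transcription factors themselves were not higher: Tfeb was at 44.6 and 19.5 CPM (-1.20), Tfe3 at 30.2 and 27.6 (-0.13) and Mitf at 15.8 and 8.21 (-0.95, and -1.76 without the clusters of other cell types).

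Among p53 targets, 12 of 27 genes were at least 2-fold higher and 2 lower (median 0.79). Cdkn1a, which encodes the cell cycle inhibitor p21 (chromosome 17, 29090976 to 29100727), was at 179 CPM in young WT, 308 in adult WT and 255 in Lang-DTA reference cells and 1363 in members (log2 2.42, 2.35 to 2.49). Bax, a pore-forming effector of apoptosis, was at 109, 80.0, 187 and 651 CPM (1.80, 1.72 to 1.89). Bbc3, the BH3-only gene PUMA, was at 18.00, 14.2, 20.97 and 93.8 CPM (2.16, 1.91 to 2.42). The members were highest for each of these genes. Phlda3, an inhibitor of AKT, was at 140 against 39.9 CPM (1.81), and the death receptor Eda2r at 117 against 52.1 CPM (1.17). Mdm2, the ubiquitin ligase in the negative feedback of p53, was at 96.9 against 63.2 CPM (0.62). Sesn1, a stress-induced inhibitor of mTORC1, was lower (28.4 against 76.2 CPM, -1.42). Of the cell death list, which shares genes with this one, 6 of 21 were at least 2-fold higher and 0 lower. Of the senescence and secretory list, which includes Cdkn1a, 2 of 16 were higher and 4 lower (median -0.24). Lower genes there included Igfbp5, an IGF-binding protein, at 74.7 CPM in members, 349 in Lang-DTA reference cells, 1336 in young WT and 1398 in adult WT reference cells (-2.22).

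Genes of the ATF4 branch of the integrated stress response, which is set off by amino acid shortage, ER stress and other insults, moved unevenly. Of 27 compared, 7 were at least 2-fold higher and 4 lower (median 0.48). Ddit3, which encodes CHOP, was at 25.6 CPM in young WT, 44.4 in adult WT and 38.2 in Lang-DTA reference cells and 278 in members (log2 2.86, 2.69 to 3.05). Atf4 itself was at 181, 232, 208 and 606 CPM (1.54, 1.46 to 1.62), and Cebpb, a partner of these factors, at 135, 218, 178 and 777 CPM (2.13, 2.04 to 2.21). Members stood above all reference groups for the 3 factors. The related factor Atf3 was at 1039 CPM in members and 973 in reference cells (0.09), Trib3, a CHOP target, at 35.7 and 18.4 CPM (0.96), and Ddit4, an inhibitor of mTORC1, was lower (22.98 against 91.9 CPM, -2.00). Of the ER unfolded protein list 2 of 20 genes were higher and 2 lower (median -0.28). The chaperone Hspa5 was at 556 and 447 CPM (0.31), and Xbp1, the factor of the IRE1 arm, at 43.3 and 90.9 CPM (-1.07).

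**Figure D3:**
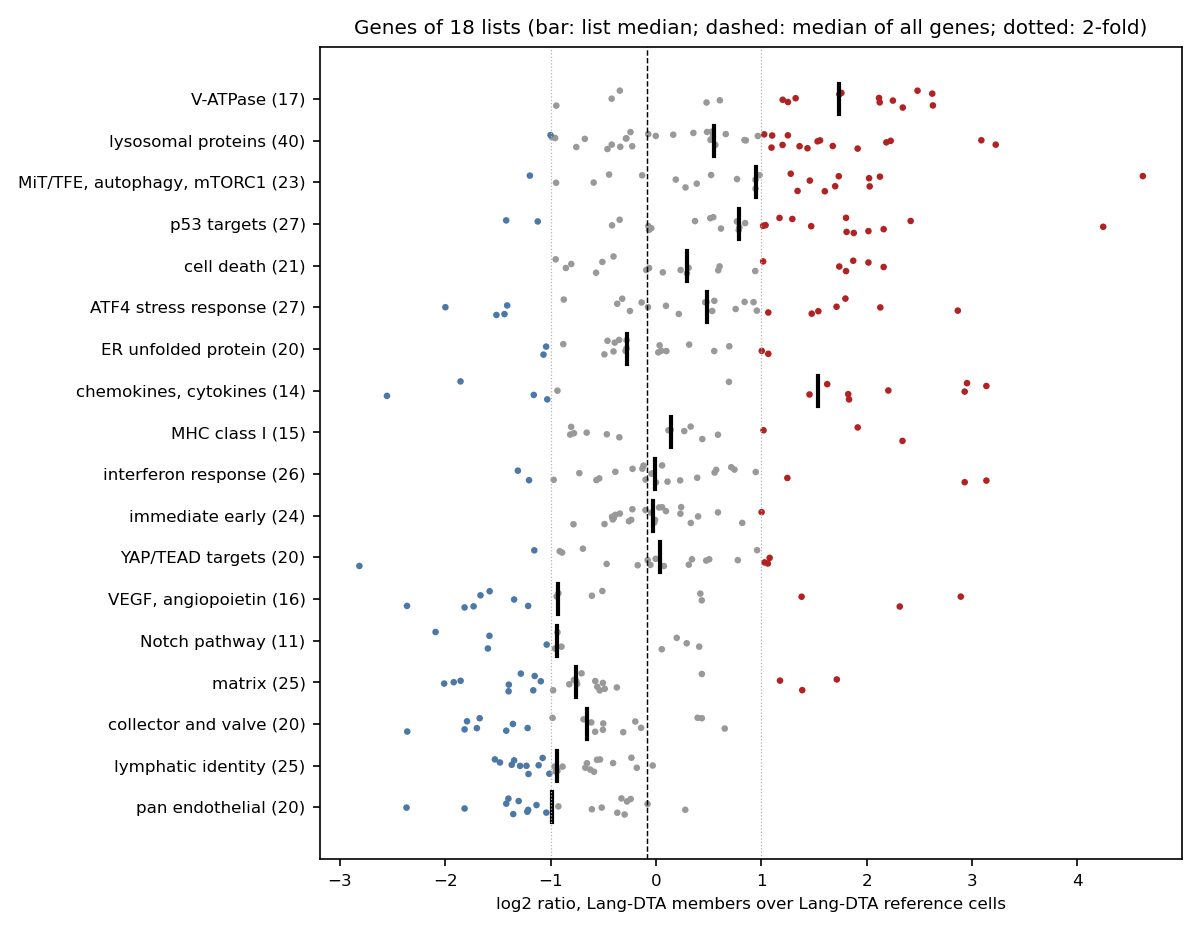
Log2 ratio of Lang-DTA members over reference cells for each compared gene of 18 lists (points; red at least 2-fold higher, blue at least 2-fold lower); the number of genes stands in parentheses, bars are list medians, the dashed line is the median of all genes and dotted lines mark 2-fold. The V-ATPase median lies at 1.74, and the lymphatic identity and pan-endothelial medians at -0.94 and -0.98.

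Of the chemokine and cytokine genes, 8 of 14 were at least 2-fold higher and 4 lower (median 1.54). Higher beside Ccl2 were Ccl7, another monocyte chemokine, at 22.2 CPM in young WT, 18.7 in adult WT and 94.4 in Lang-DTA reference cells and 336 in members (log2 1.83), and Csf1, the growth factor of macrophages, at 10.8, 16.8, 41.9 and 149 CPM (1.82). Cxcl16, a membrane-bound chemokine, was at 54.1 CPM in members against 6.99 in Lang-DTA reference cells (2.95). Tslp, an epithelial cytokine, was at 60.3 CPM in Lang-DTA reference cells and 186 in members (1.62), and within cluster 1 its log2 ratio was -0.37. Cxcl10, an interferon-induced chemokine for T cells, was at 204 CPM in members against 26.8 in Lang-DTA reference cells (2.93). Its log2 ratio had a wide gap between sexes: 7.66 in male-called and 1.97 in female-called cells. Lower were Il7, a survival factor for T cells (86.6 against 194 CPM, -1.16), and Cxcl12, the ligand of CXCR4 (19.0 against 112 CPM, -2.55, and -1.57 without the clusters of other cell types). Ccl21a was at 1695 CPM in members, 3242 in Lang-DTA reference cells and 8446 in adult WT reference cells (-0.94 within Lang-DTA).

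Among growth factors and receptors of the VEGF and angiopoietin families, the genes above 2-fold were ligands. The receptors named here were lower over all cells. Pgf (chromosome 12, 85166635 to 85177790), the placental growth factor that binds VEGFR1, was at 8.22 CPM in young WT, 4.78 in adult WT and 32.4 in Lang-DTA reference cells and 240 in members (log2 2.89, 2.70 to 3.09). Vegfb, another VEGFR1 ligand, was at 56.2, 43.6, 37.9 and 189 CPM (2.31), and Angpt2, a TIE2 ligand needed in lymphatic growth, at 110, 118, 197 and 514 CPM (1.38). These 3 were the genes of the list that were at least 2-fold higher, of 16 compared, and 7 were lower. Of the receptors, Flt4, or VEGFR3, was at 103 against 261 CPM (-1.35) and Kdr, or VEGFR2, at 124 against 288 (-1.21). Tek, the gene of TIE2, was at 35.6 against 125 (-1.82), and Flt1, or VEGFR1, at 38.9 against 200 (-2.36). Without the clusters led by markers of other cell types, Flt1 was higher in members (1.96), while Flt4 stayed lower, as given further on. Vegfc, the main lymphatic growth factor, was at 9.62 and 13.7 CPM (-0.51), and at a log2 ratio of 1.74 without the 6 clusters led by markers of other cell types.

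Lymphatic identity genes were lower or level in members, and none was 2-fold higher. Of 25 compared, 10 were at least 2-fold lower (median -0.94). Lyve1 was at 749 CPM in members, 1832 in Lang-DTA, 2356 in young WT and 2230 in adult WT reference cells (log2 -1.29, -1.33 to -1.25). Reln, the extracellular protein reelin, was at 232, 599, 1231 and 1489 CPM (-1.37), and Nr2f2, the factor COUP-TFII that works with PROX1, at 189, 544, 765 and 874 CPM (-1.53). For these genes the Lang-DTA reference cells lay between members and WT cells. Prox1, used by the rule, was at 804 against 901 CPM, Pdpn, the podoplanin used in the sort, at 221 against 341 CPM (-0.62), and Tbx1, a lymphatic T-box factor, at 108 against 111 CPM (-0.03). Of 20 pan-endothelial genes, 10 were lower and 0 higher (median -0.98). Pecam1, the gene of CD31, was at 381 against 785 CPM (-1.04), and the endothelial factor Fli1 at 184 against 485 CPM (-1.40). The VE-cadherin gene Cdh5 was at 571 against 604 CPM (-0.08), and Egfl7, a secreted endothelial protein, at 1429 against 1179 CPM (0.28). Of 20 genes of collectors and valves, 8 were lower and 0 higher (median -0.65), among them the valve factor Foxp2 (42.4 against 147 CPM, -1.79) and the connexin Gja1 (68.6 against 219 CPM, -1.67). Foxc2, the master factor of valves, was at 21.04 against 26.1 CPM (-0.31).

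**Figure D4:**
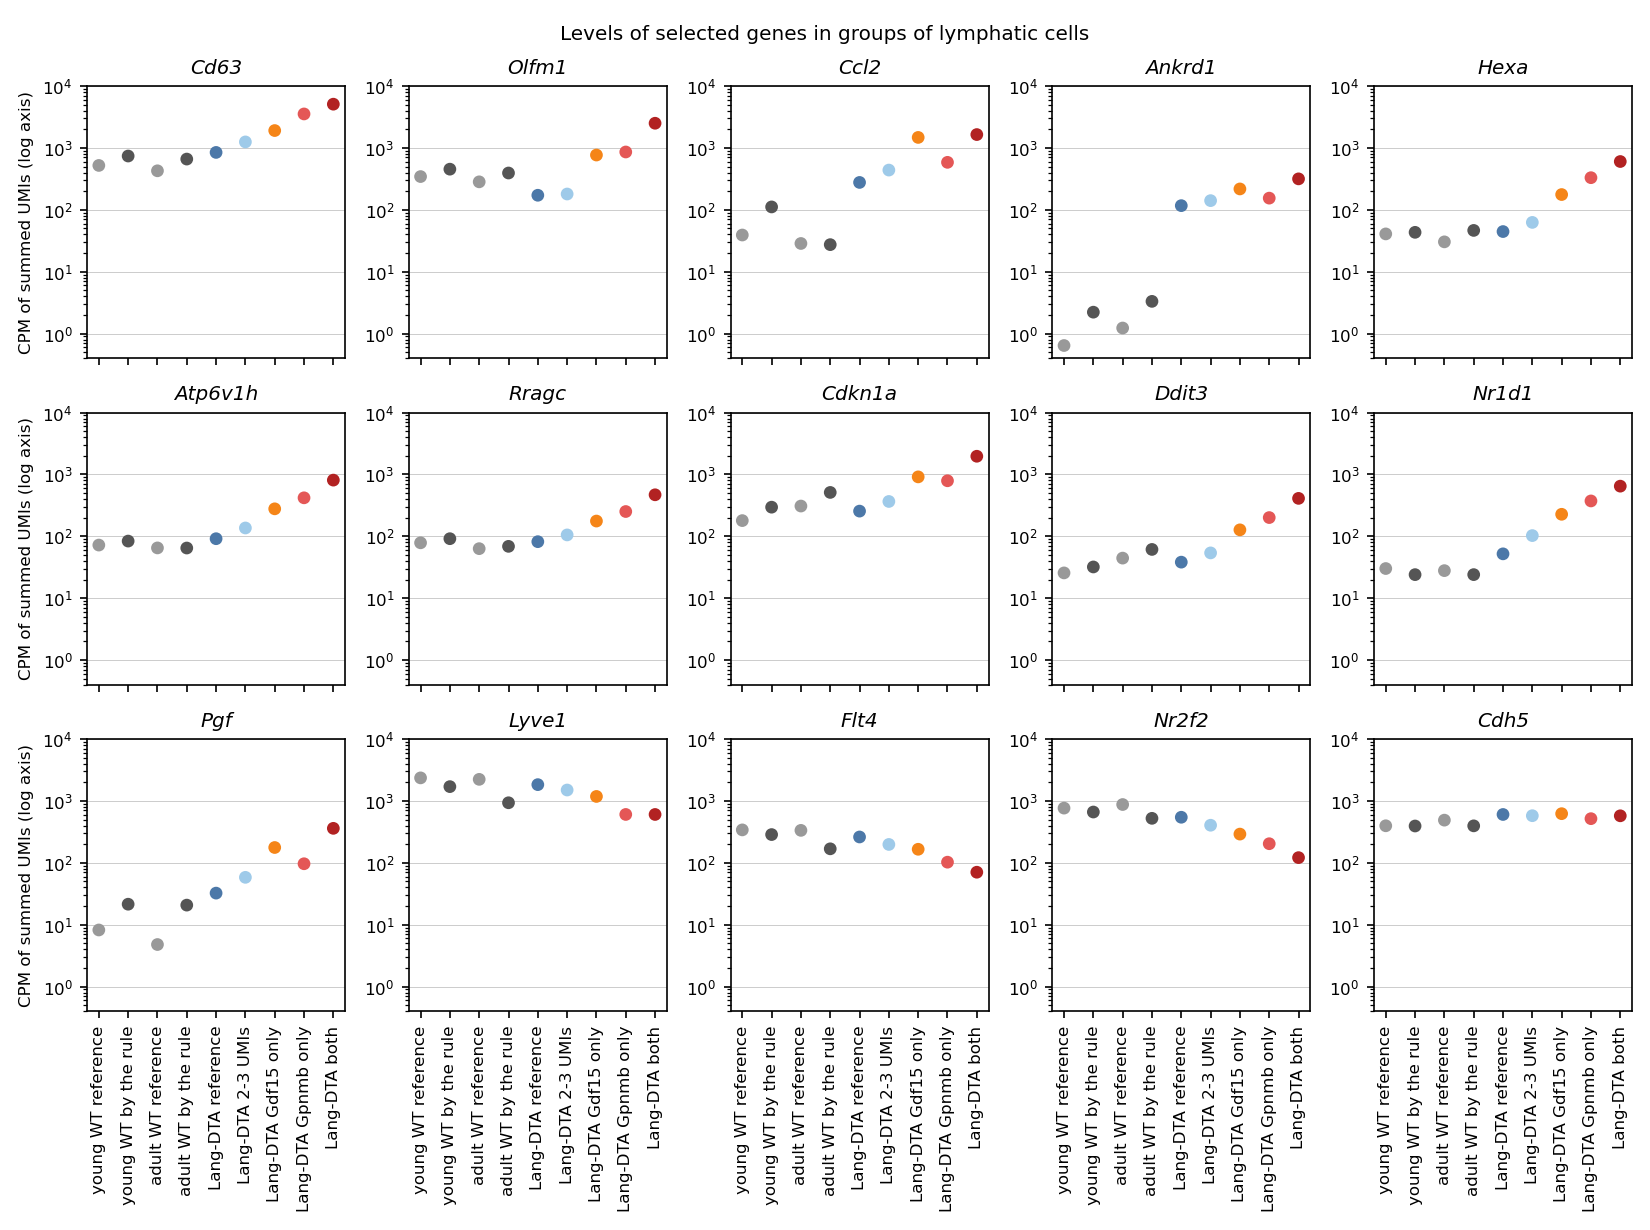
Summed level in CPM (log axis) of 15 genes in 9 groups of lymphatic cells: reference and rule-meeting cells of each WT library, and reference cells, cells with 2 to 3 UMIs of Gdf15 and Gpnmb, and the 3 classes of members in Lang-DTA. Each point is 1 group summed over its cells, with no replicates; Hexa lies at 603 CPM in cells with both genes and between 30.3 and 46.4 CPM in the WT groups and Lang-DTA reference cells.

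Genes of the circadian clock were added as a list after their values had been seen, since Ciart, Dbp and Bhlhe41 were among the 25 genes with the widest difference. Of 19 compared, 13 were at least 2-fold higher and 1 lower (median 1.59). Nr1d1, the repressor REV-ERBalpha, was at 30.2 CPM in young WT, 27.9 in adult WT and 52.1 in Lang-DTA reference cells and 460 in members (log2 3.14, 2.99 to 3.30). Dbp, a clock output factor, was at 25.6, 22.8, 25.4 and 290 CPM (3.51), and Per1, of the negative limb, at 33.0, 38.3, 28.5 and 173 CPM (2.60). The activators of the clock did not differ so: Arntl was at 52.2 against 49.9 CPM (0.06) and Clock at 155 against 137 CPM (0.18). Other cells of the Lang-DTA library had Nr1d1 between 10.5 and 85.0 CPM. Cells of the pooled mice were not assigned to single animals. The hour at which tissue was taken is not given in the sources used here, and its part in these values was not tested.

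Further lists are set beside the shares over all genes compared, 9.41% higher and 10.7% lower. Counts near these shares mark no trait of the members. Of 24 immediate early genes, which answer to dissociation, 1 was higher and 0 lower (median -0.03), with Fos at 3621 against 4325 CPM (-0.26) and Jun at 1238 against 1190 CPM (0.06). Of 26 interferon response genes 3 were higher and 2 lower (median -0.01), and of 15 MHC class I genes 3 were higher (median 0.14). B2m, which encodes beta-2-microglobulin, was at 234 CPM in young WT, 428 in adult WT and 784 in Lang-DTA reference cells and 1590 in members (log2 1.02). YAP and TEAD targets had 3 of 20 genes higher and 2 lower (median 0.04), with Ctgf at 210 against 166 CPM (0.34) and Cyr61 at 663 against 629 CPM (0.07). Of 16 NRF2 targets 2 were higher, among them the ferritin light chain Ftl1 (1851 against 648 CPM, 1.51), and the quinone reductase Nqo1 was at 65.0 against 105 CPM (-0.70). Matrix genes were lower in 9 of 25 and higher in 3, and Notch pathway genes lower in 4 of 11, with the ligand Dll4 at 12.3 against 52.5 CPM (-2.09).

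The 25 genes with the widest difference in each direction, chosen by the interval limit nearest 0 among genes that moved the same way in both sexes, included several of little known role. Gm45847, a long noncoding RNA gene (chromosome 7, 123031415 to 123068305), led with 220 CPM in members (2950 UMIs) against 0.713 in reference cells (5 UMIs), and at most 0.273 CPM in WT reference cells. It overlaps Gm45846 on the same strand (123031374 to 123169678), so reads of the pair may be split between them. Neil2, a DNA glycosylase of base excision repair, was at 43.3 against 0.285 CPM (581 and 2 UMIs), and Hpgds, a prostaglandin D synthase, at 43.9 against 0.571 CPM. Pdk4, the kinase that shuts pyruvate dehydrogenase, was at 56.3 against 0.999 CPM and Fabp3, a fatty acid binding protein, at 136 against 5.99 CPM. Reference cells had low levels of all of them. The list of lipid handling genes had 2 of 16 higher and 3 lower (median -0.24). Lower were Mctp1, a calcium-binding membrane protein (36.6 against 264 CPM, -2.85), Ptn, the growth factor pleiotrophin (49.6 against 346 CPM, -2.80), Gucy1a1, a subunit of the nitric oxide receptor (24.2 against 122 CPM, -2.34), and Stxbp6, a regulator of vesicle fusion (86.4 against 401 CPM, -2.21). Whether the counting used strand is not stated, so the reads of genes that overlap an expressed gene on the opposite strand are uncertain. Of the genes named here these include Fabp3, 3300002A11Rik, Ciart, Dbp, Nr1d1, Hexa, Ctsb, Ddit3, Cebpb, Sqstm1, Angpt2, Ccl2, Il7, Jun, Egfl7 and Prox1. Foxc2 overlaps the more abundant Gm20388, and Egfl7 overlaps Gm20532, on the same strand, so their reads may be split.

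Several of the lower genes are markers of blood endothelium. Of 11 such markers compared, 7 were at least 2-fold lower and 0 higher, and their summed level was 624 CPM in members and 1855 in reference cells. Selp and Sele, the endothelial selectins, were at 57.1 against 485 CPM (-3.09) and 18.4 against 243 CPM (-3.72). At least 3 UMIs of blood endothelial genes were found in 46 members (4.01%) and 59 reference cells (6.52%). Without these cells Vwf, the gene of von Willebrand factor, went from -2.97 to 0.55, Flt1, or VEGFR1, from -2.36 to 0.41 and Selp to -0.45; these genes chose the cells left out. Of genes not used for that choice, Lyve1 was at -1.40 and Pecam1 at -0.98. The counts of genes became 896 higher and 1012 lower. Without the 6 clusters of other cell types they were 916 and 1009. There Vwf was at 1.12, Flt1 at 1.96 and Selp at 0.84, so these 3 markers were no longer lower in members, while Sele was at -1.53. Lyve1 was at -1.45, Flt4 at -1.51, Hexa at 3.17, Atp6v1h at 2.68 and Cdkn1a at 2.67 without these clusters.

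Markers of other cells were few but uneven. Fibroblast markers were summed at 677 CPM in members and 376 in reference cells, with 4 of 6 compared at least 2-fold higher, and at 1621 CPM in the cells high for Gpnmb only. Col1a1, a collagen gene of fibroblasts, was at 8.94 CPM with Gdf15 only, 314 with Gpnmb only and 58.3 with both. Melanocyte markers were summed at 44.0 against 8.13 CPM; the pigment enzyme Dct had 254 UMIs in members and 4 in reference cells, and the melanocyte factor Sox10 had 1 and 0. Macrophage markers were summed at 69.7 against 36.8 CPM, with Aif1 at 25.6 against 1.43 CPM and Cd68 at 12.8 against 0.856 CPM, while Mrc1, which lymphatic cells also express, was at 11.2 against 24.0 CPM. The complement gene C1qa had 17 UMIs in 1148 members. Ptprc was at 0 by the rule, and the other leukocyte markers were summed at 5.15 and 2.28 CPM. Keratinocyte markers were lower in sum in members (435 against 868 CPM). So were those of pericytes and smooth muscle (48.9 against 199 CPM, 4 of 4 compared at least 2-fold lower). Few cells carried these sums. At least 3 UMIs of keratinocyte markers were found in 3.22% of members and 2.76% of reference cells. For fibroblast markers the shares were 2.44% and 2.10%, and for pericyte and smooth muscle markers 2.70% and 3.87%. Cartilage markers were at 49.2 and 49.5 CPM. Haemoglobin genes were at 481 CPM in the cells high for Gdf15 only, against 113 in all members and 138 in reference cells. These sums came from very few cells: 0.174% of members and 0.221% of reference cells held 3 or more UMIs of erythroid markers. Without the 20 members and 1 reference cell that held 3 or more UMIs of melanocyte, macrophage and Schwann genes, 869 genes were higher and 996 lower. Without the 6 clusters of other cell types Col1a1 went from a log2 ratio of 1.72 to -0.42 and Dct from 5.05 to 1.70. The part of red cell RNA in the results was not tested.

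Members differed among themselves by which gene they carried. Cells with both genes were deepest (median 12092 UMIs, mitochondrial share 0.421%), those with Gpnmb only had 11388 UMIs (0.595%) and those with Gdf15 only 9283 UMIs (1.11%). Between cells with both genes and cells with Gdf15 only, 585 of 8864 genes were at least 2-fold higher (6.6%) and 697 lower (7.86%). Of the V-ATPase genes 9 of 17 were higher with both (median 1.03), of the lysosomal genes 13 of 39 (0.53) and of the p53 targets 6 of 27 (0.71). Summed V-ATPase levels were 3356 CPM with Gdf15 only, 4318 with Gpnmb only and 7537 with both, and summed lysosomal levels 6025, 9063 and 12600 CPM. The order was the same for Cd63 (1906, 3536 and 5084 CPM). Lymphatic identity genes ran the other way, at 12655, 7430 and 6894 CPM in sum. Ccl2 did not follow this order: it was at 1476 CPM with Gdf15 only, 585 with Gpnmb only and 1642 with both. Between Gpnmb only and Gdf15 only, 421 of 9122 genes were higher (4.62%) and 218 lower (2.39%), and 6 of 15 chemokine genes were lower, of which Cxcl2 was at 16.7 against 195 CPM and Cxcl9 at 8.22 against 102 CPM.

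Summed levels of several genes shifted across bins of the UMIs of the 2 genes. Each value is a sum over the cells of a bin, so a graded state and a changing mix of cells cannot be told apart. When all 2616 lymphatic cells of the library were split by their Gdf15 and Gpnmb UMIs and each cell of at least 2000 UMIs was thinned to that depth, the summed V-ATPase was 1550 CPM in the 899 cells with 0 UMIs, 1750 with 1, 2067 with 2 to 3, 2628 with 4 to 7, 3909 with 8 to 15, 5895 with 16 to 31 and 7886 CPM in the 464 cells with 32 or more. Olfm1 went from 152 to 2934 CPM and Hexa from 37.3 to 630 CPM over the same bins, each higher in every next bin. Nr2f2 went from 529 to 134 CPM and Pecam1 from 836 to 235 CPM. Lyve1 was between 1343 and 1506 CPM below 4 UMIs and between 596 and 847 CPM from 4 UMIs on. Prox1, of which the gate required at least 1 UMI in every cell, stayed between 762 and 974 CPM and Cdh5 between 546 and 614 CPM. Median depth went from 6471 to 12102.5 UMIs and the mitochondrial share from 1.87% to 0.423% across the same bins; the part of RNA quality was not tested.

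**Figure D5:**
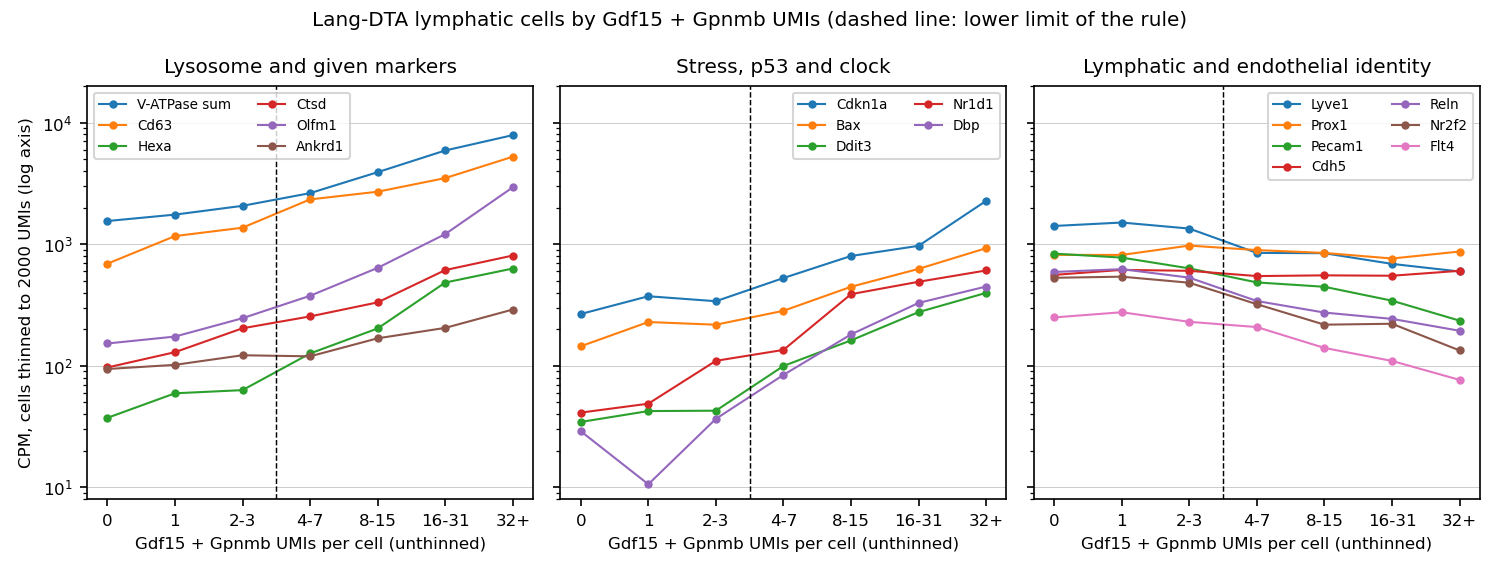
Level in CPM (log axis) of selected genes in Lang-DTA lymphatic cells after thinning each cell to 2000 UMIs, by the number of Gdf15 and Gpnmb UMIs per cell (horizontal axis, unthinned); lines join the bins and the dashed line is the lower limit of the rule. The summed V-ATPase lies at 1550 CPM in the lowest and 7886 CPM in the highest bin. Cdh5 is nearly level, as is Prox1, which the gate required in every cell.

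When the lymphatic cells of all libraries were clustered without the genes of the rule, most members fell into 2 clusters. Gm45846, Gm45847 and sex-linked, mitochondrial and ribosomal protein genes were also left out of the clustering. Cluster 5 had 768 cells, all from Lang-DTA, of which 696 were members (60.6% of members) and 33 reference cells, and it held 396 of the 475 cells with both genes. It was led by 3300002A11Rik, Fabp3, Ciart, P2rx7 and Nr1d1. Cluster 1 had 1076 cells, 1012 of them from Lang-DTA, with 332 members (28.9%) and 462 reference cells. With 1 library per condition, a cluster that holds mostly 1 library may be that library and not a cell state. Members and reference cells within cluster 1 differed at 2-fold in 152 genes upward and 227 downward, and members of cluster 5 differed from reference cells of cluster 1 in 1374 upward and 1855 downward. Within cluster 1 the log2 ratio of members over reference cells was 1.57 for Cdkn1a, 1.38 for Cd63, 2.77 for Rragd and -1.55 for Lyve1, each still past 2-fold. Hexa was there at 0.51, Atp6v1h at 0.72, Ddit3 at 0.82, Olfm1 at 0.50, Ccl2 at 0.40 and Nr1d1 at 0.11, all short of 2-fold. The medians there were 0.44 for V-ATPase, 0.26 for lysosomal and -0.73 for lymphatic identity genes. They were 0.24 for MiT/TFE, 0.24 for clock, 0.35 for p53, -0.36 for pan-endothelial and -0.16 for collector and valve genes. The ATF4 (0.44) and matrix (-0.87) medians lay near those over all cells (0.48 and -0.76). Most of the difference described above was thus between cells of different clusters, and these clusters were made from the same genes. The rule-meeting cells of young WT were mostly in clusters 3, 0 and 4 (223, 139 and 70 cells), and none was in cluster 5.

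The rule-meeting WT cells did not share most of these differences. In young WT 33 of 9048 genes were at least 2-fold higher than in that library's reference cells (0.365%) and 214 lower (2.37%). V-ATPase genes had a median log2 ratio of 0.19, lysosomal genes 0.16, p53 targets -0.09 and lymphatic identity genes -0.07 there, with 0 of 16 V-ATPase and 0 of 40 lysosomal genes at least 2-fold higher. Of 11 chemokine genes 5 were higher, with Ccl2 at 111 against 39.1 CPM and Cxcl2 at 197 against 57.8 CPM. In adult WT 350 of 9215 genes were higher (3.8%) and 346 lower (3.75%), with medians of 0.00 for V-ATPase, 0.05 for lysosomal genes, -0.15 for p53 targets and -0.43 for lymphatic identity genes. Fibroblast markers in the 143 adult WT cells were summed at 10134 CPM, and 7 of 7 compared were higher. These comparisons use other controls than that of the members, and the difference between them was not tested.

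Members were picked for Gdf15 and Gpnmb, so their levels in the other cells of the Lang-DTA library are given as background and not as a comparison. Gdf15 was at 109 CPM in blood endothelial cells (adult WT 6.16), 110 in macrophages (41.9), 56.8 in fibroblasts (8.11), 14.7 in T cells (0.200) and 4.61 in keratinocytes (0.140). Each of these values was higher in Lang-DTA than in adult WT, also that of T cells, which should lack the gene. The part of free RNA in these values was not tested. After thinning to 2000 UMIs, a Gdf15 UMI was found in 69.8% of members, 2.43% of lymphatic reference cells, 2.62% of blood endothelial cells, 0.656% of T cells and 0.453% of keratinocytes. Unthinned shares were 82.0% in members (median 11074.5 UMIs) and 2.42% in T cells (median 5774 UMIs), which should lack the gene. Gpnmb was at 1108 CPM in 24 melanocytes, where it is a normal product and stood above the 845 CPM of members, 66.3 in fibroblasts, 22.4 in macrophages and 6.68 in blood endothelial cells. A thinned Gpnmb UMI was found in 65.1% of members, 4.75% of lymphatic reference cells and 0.787% of T cells.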

How the data were processed

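Per the labels, 4 sorted populations from pooled ears were combined and run on 10x Genomics 3' v4 chemistry, with 1 library for each of 3 conditions. An imiquimod condition was not analysed here. The authors deposited UMI counts per gene and called barcode, without normalization, made with Cell Ranger 8.01 on GRCm38 per the submitters' processing notes (8.0.1 per the file headers). Not given in the sources used here: the annotation release, whether strand and introns were used, and whether free RNA was removed. Gene positions came from GENCODE M21.

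The members and gene lists were chosen with earlier results of these data known. Raw counts were summed over the cells of a group and scaled to counts per 1000000 (CPM). Genes with at least 10 CPM in 1 group and at least 20 UMIs over both were compared as log2 ratios with exact conditional 95% intervals. Shares have Clopper-Pearson intervals, and an upper limit for 0 uses 3 counts. Cells are not replicates, so no p-value was computed, and "at least 2-fold" is a size and not a test.

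Beside the 6 given markers, genes were named from each list by level among those past 2-fold, with defining members whatever their ratio. Also eligible were 25 genes per direction with the interval limit farthest from 0, at least 30 CPM, at least 100 UMIs and the same direction by 1.25-fold in both sexes. Genes of the rule, Xist and Y-linked genes were left out. Male calls needed 1 Y-linked UMI and 0 of Xist, female calls 2 of Xist and 0 Y-linked.

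Clusters came from 2000 variable genes, 30 principal components, 20 neighbours and Leiden resolution 1.0 (igraph 0.11.9, leidenalg 0.10.2). Left out of the variable genes were Gdf15, Gpnmb and the other genes of the rule, Xist, Tsix and Y-linked genes. Mitochondrial and ribosomal protein genes, Gm45846 and Gm45847 were left out as well. Doublets were called from 2 simulated doublets per cell (scikit-learn 1.9.0) and kept unless stated. Other steps used Python 3.11.15, numpy 2.4.6, pandas 2.3.3 and scipy 1.17.1. The ratios were tested on simulated data over 8904 genes, of which 199 were changed 2-fold: the median recovered log2 size was 1.00, and 94.5% of intervals held the true value. The simulated sums had counting error only, as the intervals assume, and no variation between cells or mice. The simulation thus checks the calculation and not whether the intervals are wide enough for these data.

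Alternatives changed the minimum UMIs of the rule, doublets, cells with other types' transcripts, the mitochondrial limit, depth, cell weights, scaling, the CPM floor and the sex call. Leaving out blood endothelial transcripts, comparing by cluster, and leaving out clusters with at least 2 markers of 1 other cell type and none of the lymphatic list among their top 10 genes were added after seeing the data.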

Additional observations from a re-analysis of the deposited data

How the results depend on the processing

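The share of members in Lang-DTA lymphatic cells (43.9%) was 47.1% with at least 2 Prox1 UMIs, 34.9% with at least 8 UMIs of Gdf15 and Gpnmb, 48.1% in male-called cells and 47.6% without the clusters led by markers of other cell types. The counts of 876 genes higher and 998 lower became 1560 and 1814 without a CPM floor and 502 and 385 with a floor of 50 CPM, as more or fewer genes were compared. Median-of-ratios scaling gave 992 and 830, which moved the share of higher genes among those past 2-fold from 46.7% to 54.4%. Members of cluster 5 against reference cells of cluster 1 gave 1374 and 1855, and cluster 1 alone 152 and 227. Of the list medians under the alternatives, 485 moved by less than 0.5 on the log2 scale. In all 52 of 504, in 13 lists, took the opposite sign, of which 1 had a size of at least 0.5 over all cells: the Notch list, from -0.94 to 0.13 with the floor of 50 CPM, which leaves fewer of its genes. Cholesterol synthesis genes went from -0.37 to 1.78 under the same floor. The other lists with a change of sign lay between -0.30 and 0.14 over all cells. Of the named genes' log2 ratios, 1685 moved by less than 0.5, 228 by more and 15 of at least 2-fold changed sign. With the cells rich in blood endothelial transcripts left out, Flt1 went from -2.36 to 0.41 and Vwf from -2.97 to 0.55, genes that chose those cells. Without the clusters led by markers of other cell types, also left out after seeing the data, Flt1 was at 1.96, Vwf at 1.12, Selp at 0.84 (-3.09 over all cells) and Col1a1 at -0.42. In male-called cells Mrc1 was at 0.24 (-1.10 over all cells). Between cluster 5 and cluster 1, Flt1 was at 2.80, Vwf at 2.42, Cxcl9 at -4.33 (3.14 over all cells) and Col1a1 at -0.46 (1.72), and Col1a1 was at -0.092 against reference cells with at least 1 Prox1 UMI. Within cluster 1, Ankrd1 was at -0.054, Sele at 2.13 and Tslp at -0.37. For the cluster values and Col1a1 the cause was not tested. No paired analysis was possible because each condition has 1 library, and no replicate could be left out. Depth limits the genes with few UMIs in reference cells, and members were deeper than reference cells.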
